A study of Mus musculus with 4 samples.

Results

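The rows described here are the named pseudogene copies of expressed genes in mouse liver: gene symbols that end in -ps with or without a number, chosen by their summed count, at least 20 over the 4 libraries. That total was the sole measured value in the rule, and it does not depend on which strain the counts came from. The rule itself was set with earlier results of these data known. Serpina3e-ps, H2-Ea-ps and the symbols of the major urinary protein family were left out by the same rule. Of 1439 rows with such a name, 428 had a count in any library and 149 reached the minimum. Leaving out 20 of these gave 129 copies among 50584 rows in all. The libraries were made from poly(A) RNA of liver; the mice were male, labelled as wild type, 14 weeks of age and fed chow, with 2 of strain DBA/2J and 2 of strain C57BL/6J. Both are inbred strains, and the reads of both were placed on a reference genome (GRCm38) that derives from C57BL/6J.

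A pseudogene is a copy of a gene that is held to have lost the coding function of its parent. Processed pseudogenes arise when a spliced messenger RNA is copied back into DNA and inserted elsewhere, so they lack introns and often resemble the parent's mature transcript very closely. Unprocessed pseudogenes arise by duplication of a stretch of genome and keep the exon structure. Genes for ribosomal proteins, which are highly transcribed in every tissue, have left very many processed copies in mammalian genomes. A short read from such a gene can match the parent and a copy equally well or nearly so.

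All 129 copies were matched by symbol in the GENCODE M21 annotation of GRCm38, and 110 of them had the same coordinates there as in the deposited files. The annotation types 75 as processed, 5 as transcribed processed, 21 as unprocessed, 17 as transcribed unprocessed, 4 as polymorphic and 3 as transcribed unitary pseudogenes. The other 4 are typed as protein-coding (Ftl1-ps1, Rpl9-ps6 and Rpl10-ps3) or as a long intergenic RNA (Speer9-ps1). In the files, 90 of the copies consist of a single exon. By parent symbol, 38 are copies of ribosomal protein genes (31 distinct parents), 20 of metabolic enzymes and carriers and 9 of detoxifying enzymes (Cyp21a2-ps placed among them). A further 4 are of chromatin or RNA-binding proteins, 3 of translation factors (Tpt1 placed among them), 3 of chaperones and 52 of other genes. A gene with the parent's symbol was present in the files for 86 copies, with 77 distinct parents.

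How closely the copies resemble their parents was read from the reference transcripts. In the alignments of 84 copies to the parent they are named for, identity ranged from 79.412% to 100%, with a median of 98.861%. For each copy, every stretch of 100 bases, the read length given in the labels, was looked up in the transcripts of genes at other loci. In 12 copies every such stretch was found in another gene's transcript, in 32 copies none was, and the median over copies was 14.98% of stretches.

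The following stretches of 150 bases from the coding part show how little separates a copy from its parent. They are GRCm38 reference sequence, which is that of C57BL/6J; the bases that DBA/2J carries there were not analysed. Capitals mark the bases at which copy and parent differ, and in Rps15a those at which any of the 3 copies shown differs. Positions in the substitutions given below count from 1 at the first base printed, with the parent's base first. Rpsa-ps10, the called copy with the largest difference in CPM between the strains, lies at chr3:150073198-150073347 on the minus strand and differs from Rpsa in this stretch by T15C, C24T and C150G.
Rpsa-ps10: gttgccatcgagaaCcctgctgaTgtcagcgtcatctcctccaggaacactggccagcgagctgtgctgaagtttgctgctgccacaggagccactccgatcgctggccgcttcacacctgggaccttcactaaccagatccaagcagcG
Rpsa: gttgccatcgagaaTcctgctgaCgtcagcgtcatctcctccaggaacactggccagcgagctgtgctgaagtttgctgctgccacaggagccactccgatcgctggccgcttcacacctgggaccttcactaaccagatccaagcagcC
Over the whole aligned coding part, Rpsa-ps10 differed from Rpsa at 6 of 885 bases, and no stop codon was met in the 295 codons read in the parent's frame.

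Rpl15-ps2 (chr9:72060941-72061090, plus strand) is shown because its counts were near 0 in 1 strain. It differs from Rpl15 by G9A, T75C, C98T and A150G in this stretch and at 8 of 613 bases of the aligned coding part.
Rpl15-ps2: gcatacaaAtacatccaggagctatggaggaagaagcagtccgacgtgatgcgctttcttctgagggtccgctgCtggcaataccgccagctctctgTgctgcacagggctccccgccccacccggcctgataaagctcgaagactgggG
Rpl15: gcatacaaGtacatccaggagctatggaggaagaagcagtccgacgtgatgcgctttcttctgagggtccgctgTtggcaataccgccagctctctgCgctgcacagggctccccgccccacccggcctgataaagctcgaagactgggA
The 3 copies of Rps15a are shown together because all 3 were higher in DBA/2J but stand at unlike distances from the parent. Rps15a-ps8 (chr4:53791307-53791456, minus strand) differs at 16 bases here and at 30 of 387 in all. Rps15a-ps6 (chr11:6172887-6173036, minus strand) carries C7T, C117T and T150C and differs at 5 of 393, and in the parent's frame its codon 3 is a stop codon. Rps15a-ps5 (chr5:105797564-105797713, minus strand) carries C31T, A82T and T150C and also differs at 5 of 393.
Rps15a-ps8: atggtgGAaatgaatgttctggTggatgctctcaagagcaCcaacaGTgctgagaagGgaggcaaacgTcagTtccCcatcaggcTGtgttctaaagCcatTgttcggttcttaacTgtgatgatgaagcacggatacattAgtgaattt
Rps15a-ps6: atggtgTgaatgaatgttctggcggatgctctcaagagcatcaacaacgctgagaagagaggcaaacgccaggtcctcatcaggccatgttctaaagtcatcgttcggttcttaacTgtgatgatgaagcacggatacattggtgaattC
Rps15a-ps5: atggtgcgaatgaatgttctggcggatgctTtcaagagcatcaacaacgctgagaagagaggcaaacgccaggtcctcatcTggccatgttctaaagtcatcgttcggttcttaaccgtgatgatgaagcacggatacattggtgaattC
Rps15a: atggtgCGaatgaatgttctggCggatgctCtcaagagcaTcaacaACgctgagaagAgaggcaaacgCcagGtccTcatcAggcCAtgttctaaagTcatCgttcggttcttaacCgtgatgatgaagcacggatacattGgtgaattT
Glns-ps1 (chr11:19721180-19721329, plus strand) has no parent of its own symbol in the files, and its closest coding gene by sequence is Glul. It differs from Glul by 7 bases in the stretch shown and at 24 of 1114 in all.
Glns-ps1: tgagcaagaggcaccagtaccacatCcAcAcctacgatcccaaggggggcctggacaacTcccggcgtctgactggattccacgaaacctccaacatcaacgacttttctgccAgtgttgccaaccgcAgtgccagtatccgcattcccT
Glul: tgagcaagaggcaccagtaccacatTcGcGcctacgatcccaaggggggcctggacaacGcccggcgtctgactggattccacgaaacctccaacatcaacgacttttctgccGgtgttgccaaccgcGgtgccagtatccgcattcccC
Tpt1-ps3 (chr6:99878185-99878334, minus strand) stands for the copies without a difference: it matched Tpt1 at all 519 coding bases, so that the stretch is printed once.
Tpt1-ps3: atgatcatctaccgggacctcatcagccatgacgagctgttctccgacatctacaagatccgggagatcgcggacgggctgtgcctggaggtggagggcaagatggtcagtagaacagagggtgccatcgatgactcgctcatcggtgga

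The libraries held between 48096706 and 52520737 counts. The copies took 0.0908% and 0.0921% of them in the DBA/2J libraries and 0.0775% and 0.0661% in the C57BL/6J libraries. Among marker lists, the summed level of hepatocyte genes lay between 80717 and 94852 CPM (counts scaled to library size by TMM), with 0 of 6 genes called and none of the 6 at 0. Stellate cell markers summed to 169 and 213 CPM for DBA/2J and to 129 and 88.3 CPM for C57BL/6J, with 1 of 4 called higher. Red cell markers summed to 335 and 287 CPM against 164 and 200, with 2 of 3 called higher. Sinusoidal endothelial markers had 1 of 4 called higher and 1 lower, with sums from 77.2 to 98.5 CPM, and Kupffer cell and cholangiocyte markers had 0 called. Neutrophil markers stood apart in C57BL/6J replicate 1, at 5.11 CPM against 0.253 to 0.477 in the other libraries, with 0 called. Of the genes of other organs, Prss2 was at 0 in every library and 1 of 3 was called higher, with sums of 78.9 and 66.6 against 26.6 and 25.9 CPM. The part of these cell types in the results on the copies was not tested.

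Named copies were more often higher than lower in DBA/2J among those that could be tested. The test was edgeR's quasi-likelihood test over all 15647 genes that passed the filter on low counts, with Benjamini-Hochberg adjustment and a call at an adjusted p under 0.05. Of the 129 copies 93 were tested, of which 25 were called higher and 4 lower, or 31.2% called in all; over all tested genes 18.2% were called, 9.29% higher and 8.87% lower. These counts describe the copies and do not support a claim about them. Some had passed the filter through 1 strain alone, namely 14 through the DBA/2J libraries, all 14 called, and 4 through the C57BL/6J libraries, of which 1 was called. The CPM of the 2 strains did not overlap in 67 of the 93, beside 63.8% of all tested genes. The median log2 difference was 0.14 over the tested copies and 0.01 over all tested genes. It was the same with the 6 copies at 0 in 1 strain set to their bound.

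The number called over all tested genes changed widely with the library left out, as given in the last section. In such a fit the lone library of a strain is assumed to vary like the other strain. The calls of copies depended on the DBA/2J libraries, as did those of the parents given below, so this is not particular to the copies. With either of them left out 9 copies were called, 8 higher and 1 lower without replicate 1, and 9 higher and 0 lower without replicate 2. Without C57BL/6J replicate 1 or replicate 2, 34 and 37 were called, among them 28 and 29 of the 29. A group of 8 copies was called in each of the 4 fits that left out 1 library: Rpsa-ps10, Ftl1-ps1, Glns-ps1, Rpl3-ps1, Rpl14-ps1, Rpl15-ps2, Mrpl48-ps and Usf2-ps1. Cyp21a2-ps lost its call without DBA/2J replicate 2 alone and Nudc-ps1 without DBA/2J replicate 1 alone; the other 19 lost it without either DBA/2J library, and Obox4-ps2 without C57BL/6J replicate 1 too. Where a call is given below for a copy outside those 8, this limit applies.

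**Figure D1:**
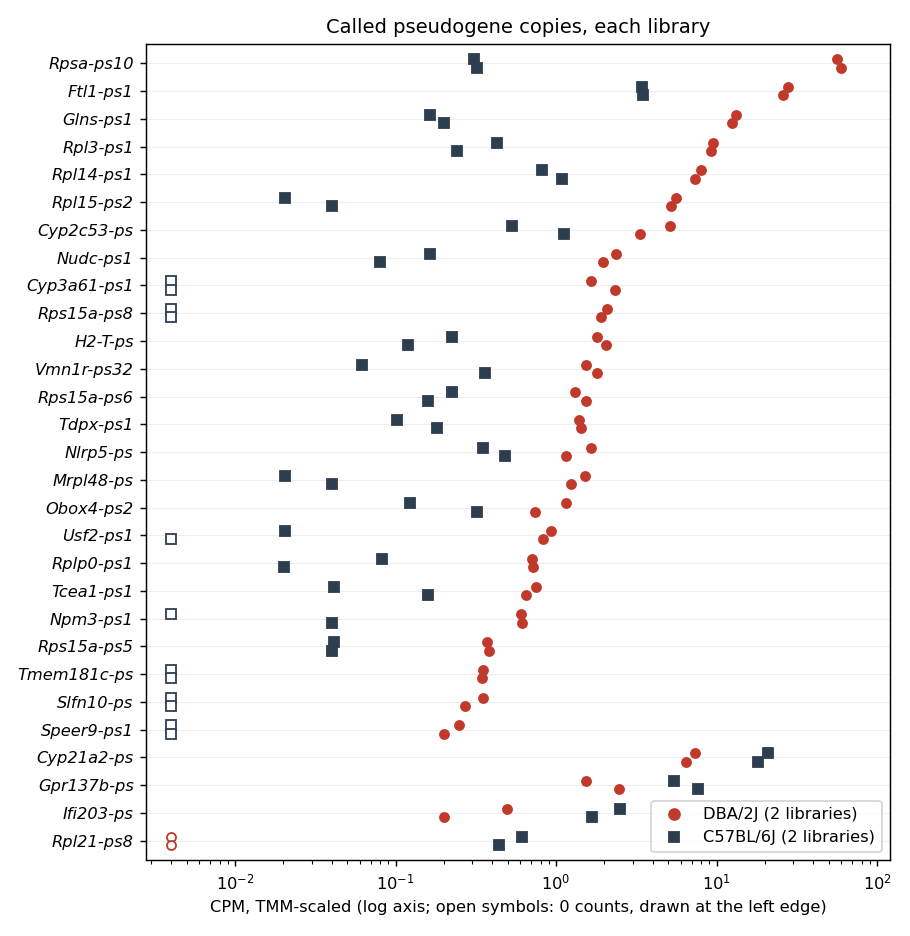
Level of each of the 29 called copies in each library, as TMM-scaled CPM on a log axis; circles are the 2 DBA/2J libraries, squares the 2 C57BL/6J libraries, and open symbols stand for 0 counts. The upper 25 copies were called higher in DBA/2J and the lower 4 lower, ordered by level within each. No called copy has overlapping strains, beside 63.8% of all tested genes without overlap.

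Copies of ribosomal protein genes, the structural proteins of the ribosome, ran in both directions. Of the 38, 25 were tested, and the median log2 difference was -0.42. Among these 25, 8 were called higher and 1 lower, beside 9.29% higher and 8.87% lower over all tested genes. Some of those called had passed the filter through 1 strain alone, as Rps15a-ps8 and Rpl15-ps2 through DBA/2J and Rpl21-ps8 through C57BL/6J. The counts of calls thus describe the ribosomal copies and do not support a claim about them. Summed over all 38, the ribosomal copies reached 91.0 and 92.7 CPM in the DBA/2J libraries and 15.2 and 11.8 CPM in the C57BL/6J libraries. Without Rpsa-ps10 the sums were 35.1 and 33.1 CPM against 14.9 and 11.5 CPM.

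Rpsa-ps10 (chr3:150072658-150073542) is a copy of Rpsa, which encodes a small-subunit protein also known as the laminin receptor. It had 2697 and 3296 counts in the DBA/2J libraries and 15 and 16 in the C57BL/6J libraries. The strains were thus far apart, at 57.7 ± 2.60 CPM against 0.314 ± 0.009 (SD, n = 2 each), a log2 difference of 7.51 ± 0.13 (SE, edgeR adjusted p = 3.4e-05). It was the single called copy among the 10 with the highest mean level per kb of exon. Its neighbour in name, Rpsa-ps9, had 8 and 8 counts in DBA/2J and 32 and 19 in C57BL/6J, below C57BL/6J in both libraries but not called (edgeR adjusted p = 0.0638), except with C57BL/6J replicate 2 left out.

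Copies of 3 large-subunit genes followed in level. Rpl3-ps1 (chrX:13202571-13203780) had 460 and 508 DBA/2J counts against 21 and 12, a log2 difference of 4.79 ± 0.28 (edgeR adjusted p = 6.8e-04). Rpl14-ps1 (chr7:45324965-45325617), in the span of the ion channel gene Trpm4 on the opposite strand, had 387 and 404 against 40 and 54, 8.05-fold higher (SE 0.22 on the log2 scale, edgeR adjusted p = 0.00141). Rpl15-ps2 (chr9:72060937-72061549), in the span of the transcription factor gene Tcf12, had 271 and 286 against 1 and 2. With so few counts in C57BL/6J its ratio of 177 had a 95% counting interval from 60.2 to 860. None of the 3 overlapped between strains, which also held for 63.8% of all tested genes. The host genes Trpm4 and Tcf12 were not called (edgeR adjusted p = 0.633 and 0.0548).

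The Rps15a copies shown above were all higher in DBA/2J. Rps15a-ps8, the most diverged, had 100 and 106 counts against 0 and 0, at least 65.4-fold higher with C57BL/6J set at a floor of 3 counts over the group. Rps15a-ps6 (63 and 85 against 11 and 8 counts) differed by 2.87 ± 0.37 on the log2 scale. Rps15a-ps5 had 18 and 21 counts against 2 and 2, a log2 difference of 3.14 ± 0.53. It lies in the span of Lrrc8d, a subunit gene of a volume-regulated anion channel, on the opposite strand. Lrrc8d itself was called higher by 0.82 ± 0.11 (edgeR adjusted p = 0.00827); its part in the difference of the copy was not tested. Rps15a-ps6 lies in Nudcd3 on the same strand, which was not called (log2 difference -0.08).

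Rplp0-ps1, a copy of the gene for a ribosomal stalk protein, had 34 and 40 DBA/2J counts against 4 and 1, a log2 difference of 3.75 ± 0.56. The ribosomal copy called lower was Rpl21-ps8 on chromosome 18, with 0 and 0 DBA/2J counts against 30 and 22, at least 18.2-fold lower. Its counts thus came from C57BL/6J alone. The ribosomal copies called higher had counts in both strains, except for Rps15a-ps8. The 16 tested ribosomal copies without a call had log2 differences from -1.73 (Rpsa-ps9) to 0.12 (Rpl39-ps).

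Copies of other genes with a named or sequence-matched coding relative were mostly higher in DBA/2J where called. Glns-ps1 (chr11:19720355-19721472) resembles Glul, which encodes glutamine synthetase, the ammonia-fixing enzyme of pericentral hepatocytes, at 96.8% identity. It had 639 and 694 counts against 8 and 10, a log2 difference of 6.12 ± 0.22 (edgeR adjusted p = 1.7e-04). Ftl1-ps1 (chr13:74406396-74407317) is a copy of the ferritin light chain gene for iron storage, and shares exon sequence with Mir692-3. Its counts were 1348 and 1427 against 168 and 174, a log2 difference of 2.95 ± 0.12 (edgeR adjusted p = 2.4e-04). Both calls held with each library left out in turn.

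Mrpl48-ps (chr4:88599175-88599810), a copy of a mitochondrial large-subunit gene, had 73 and 69 counts against 1 and 2, a ratio of 45.1 (95% counting interval 15.1 to 221). Usf2-ps1, from a gene for a helix-loop-helix transcription factor, had 45 and 46 against 1 and 0, a ratio of 86.7 (15.2 to 3461). Both had almost no counts in C57BL/6J and a like level in the 2 DBA/2J libraries. Nudc-ps1, from a gene of nuclear migration, had 114 and 108 against 8 and 4, a log2 difference of 4.12 ± 0.41. Npm3-ps1, from a histone chaperone gene, had 29 and 34 against 0 and 2, a ratio with a counting interval from 7.97 to 253.

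Tdpx-ps1, closest to the peroxiredoxin gene Prdx2, had 67 and 79 counts against 5 and 9, a log2 difference of 3.29 ± 0.39. Tcea1-ps1, from a gene of transcription elongation, had 36 and 36 against 2 and 8, a log2 difference of 2.75 ± 0.54. Neither overlapped between strains, as was so for 63.8% of all tested genes.

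Of the 4 copies called lower, 3 were unprocessed copies, which come from duplicated genome segments. Of the 45 copies typed unprocessed, unitary or polymorphic, 39 were tested, 9 were called higher and 3 lower, beside 9.29% higher and 8.87% lower over all tested genes; the 3 are no more than that share would give. Cyp21a2-ps (chr17:34719813-34722252), a copy of the gene for the steroid 21-hydroxylase, had 353 and 357 DBA/2J counts against 1020 and 906, a log2 difference of -1.51 ± 0.14 (edgeR adjusted p = 0.00262). Its exons overlap Tnxb, and its closest coding gene Cyp21a1 was also called lower, by -2.10 ± 0.38 on the log2 scale. Gpr137b-ps, from a gene of a lysosomal membrane protein, had 74 and 137 against 263 and 385, a log2 difference of -1.70 ± 0.31. Ifi203-ps, from an interferon-inducible gene, had 24 and 11 against 122 and 84, a log2 difference of -2.61 ± 0.46, and its parent Ifi203 was called lower as well, by -1.37 ± 0.22.

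Among detoxifying enzymes, Cyp3a61-ps1 (chr5:138383812-138391594) had 80 and 129 DBA/2J counts against 0 and 0, at least 66.4-fold higher, while its closest coding gene Cyp3a13 was called lower by -2.07 ± 0.11. Its exons overlap those of Gm10874, as do those of Got2-ps1, which lies 18.26 kb away and was not called at 38 and 35 against 14 and 22 counts. Cyp2c53-ps, whose exons overlap Cyp2c29, had 248 and 184 counts against 26 and 56, a log2 difference of 2.34 ± 0.41. Of the 9 copies in this class, 9 were tested, 2 were called higher and 1 lower. That is 33.3% called, beside 18.2% of all tested genes, and Cyp3a61-ps1 had passed the filter through the DBA/2J libraries alone.

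H2-T-ps, which is closest to the nonclassical class I gene H2-T23, had 87 and 114 counts against 11 and 6, a log2 difference of 3.47 ± 0.38. Its exons overlap those of BC023719 and Gm7030. Slfn10-ps, of the Schlafen family, had 17 and 15 against 0 and 0, at least 10.2-fold higher. Tmem181c-ps had 17 and 19 against 0 and 0, at least 11.4-fold higher. Its relative Tmem181b-ps, 145.930 kb away, had 77 and 87 against 41 and 30 (log2 difference 1.13, edgeR adjusted p = 0.0508; called without C57BL/6J replicate 1), and their closest coding gene Tmem181a was called lower by -1.29 ± 0.26. Vmn1r-ps32, of a pheromone receptor family, had 74 and 99 against 3 and 18, a log2 difference of 2.95 ± 0.56; its C57BL/6J libraries lay well apart.

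A run of copies on chromosome 7 contains oocyte gene families. Obox4-ps2, of an oocyte homeobox family, had 56 and 41 counts against 6 and 16, a log2 difference of 2.07 ± 0.52 (edgeR adjusted p = 0.0452). Nlrp5-ps begins 0.586 kb further on and its exons overlap Vmn1r90; it had 80 and 64 against 17 and 24, a log2 difference of 1.75 ± 0.37. Within the same run, Obox4-ps1 (28 and 20 against 7 and 17), Obox4-ps3 (57 and 47 against 32 and 72) and Zfp-ps (30 and 26 against 8 and 12) were not called. Speer9-ps1, elsewhere on that chromosome, had 12 and 11 against 0 and 0, at least 7.30-fold higher.

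Of the 10 copies with the highest levels, all 10 tested, 1 was called, beside 18.2% of all tested genes. Ranked by mean CPM per kb of exon over the 4 libraries, the highest was Cyp2d37-ps at 137, of a drug-metabolising P450 family, with 4045 and 4530 counts against 3374 and 4431. Serpina4-ps1, of the serine protease inhibitors, followed at 114 per kb, with 6862 and 5209 counts against 11314 and 5904, where C57BL/6J replicate 1 stood above the other 3 libraries. Pisd-ps1, from the gene for phosphatidylserine decarboxylase, stood at 60.6 per kb and Mug-ps1, of the murinoglobulin protease inhibitors, at 35.1. The next after Rpsa-ps10 (32.8 per kb) were Gstp-ps, Mpc1-ps, Vamp7-ps, Marcksl1-ps4 and Gtpbp4-ps1, between 19.1 and 24.3 per kb. Of these 10, all but Rpsa-ps10 were not called, with log2 differences from -0.57 (Serpina4-ps1) to 0.55 (Mug-ps1). Without C57BL/6J replicate 2, Pisd-ps1, Serpina4-ps1 and Vamp7-ps were called, and without C57BL/6J replicate 1 Mug-ps1 was.

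Copies that read letter for letter like another gene gave too few tests to set their calls apart from the 18.2% over all tested genes. Of the 12 copies with every 100-base stretch in another gene's transcript, 7 were tested, 0 were called by edgeR and 3 had an unadjusted p under 0.05; none was called under DESeq2 either. Tpt1-ps3, the identical copy printed above, had 230 and 205 DBA/2J counts against 301 and 241. Its log2 difference of -0.38 ± 0.22 stood beside -0.43 ± 0.11 for Tpt1. Rps16-ps2 had 43 and 43 against 53 and 65, at -0.52 beside -0.47 for Rps16, and Rps13-ps2 had 20 and 31 against 50 and 41, at -0.91 beside -0.57 for Rps13. The 7 log2 differences ran from -1.21 to -0.38. Because the reads of such a copy cannot be told from those of the genes that share its stretches, these counts are uncertain for the copy and for those genes. Among the 32 copies with no shared stretch, 23 were tested and 5 were called (21.7%, near the same share), all 5 higher.

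**Figure D2:**
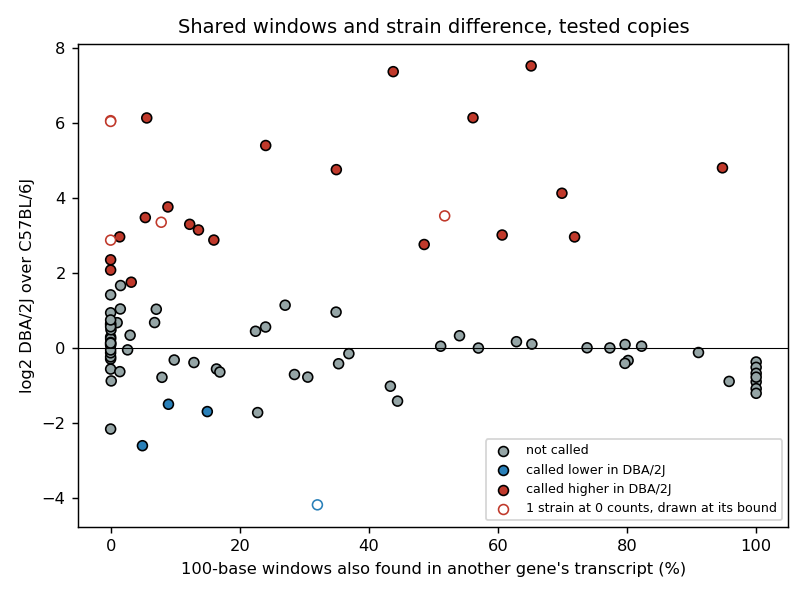
Log2 difference of each of the 93 tested copies (vertical) against the share of its 100-base stretches also found in the transcript of a gene at another locus (horizontal, %); red and blue are copies called higher and lower in DBA/2J, and open symbols are copies at 0 in 1 strain, drawn at their bound. The 7 tested copies at 100% all lie below 0 and are not called, and called copies are spread from 0 to 94.8% of stretches. With 7 tests the copies at 100% cannot be set apart from the 18.2% called over all tested genes.

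The parents of the copies, where called, were nearly all lower in DBA/2J. Of 77 named parents 75 were tested, of which 1 was called higher (Apc) and 38 lower, with a median log2 difference of -0.44. Over all tested genes 9.29% were called higher and 8.87% lower. Among the 31 ribosomal parents 29 were called lower, Fau and Rpl9 being the others. Among 44 tested parents of other kinds 1 was called higher and 9 lower. That is 22.7% called, beside 18.2% of all tested genes. Without either DBA/2J library 3 parents were called lower. The ribosomal parents summed to 3091 and 3065 CPM for DBA/2J and to 5521 and 4861 CPM for C57BL/6J.

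Of the 25 copies called higher, 14 had a tested parent. Of those 14, the parent lay below 0 in 13, was called lower in 11 and was called higher in 0; the 3 without a call were Ftl1, Usf2 and Nudc. The 11 copies belong to 9 distinct parents, since the Rps15a copies share theirs. Copies without a call also had parents called lower, namely 17 of 39 with a tested parent. Neither count was tested against the other. Over all tested genes 8.87% were called lower, and of the 31 ribosomal parents 29 were. Some of the 14 copies had passed the filter through the DBA/2J libraries alone. These counts thus describe the pairs and do not support a claim about them.

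Side by side, Rpsa had 6841 and 8318 DBA/2J counts against 22770 and 20860, a log2 difference of -1.60 ± 0.10, where Rpsa-ps10 was 7.51 higher. Between the strain means Rpsa-ps10 was higher in DBA/2J by 57.4 CPM and Rpsa was lower by 296 CPM (difference -296), so the rise of the copy came to 19.4% of the fall of the parent. The same share was 14.6% for Rpl15-ps2, 9.98% for Rpl3-ps1, 8.77% for Rpl14-ps1, 12.0% for Mrpl48-ps and 5.57% for Glns-ps1 against Glul. This share was taken wherever the parent or closest coding gene of a copy called higher was tested and had a lower DBA/2J mean. It ran from 0.243% for Rplp0-ps1 to 34.2% for Cyp2c53-ps against Cyp2c38, with 19.9% for Nudc-ps1 and 15.7% for Npm3-ps1. Among the genes so compared, Nudc, Usf2 and H2-T23 were not called lower (edgeR adjusted p = 0.0741, 0.173 and 0.228). Pairs without such a fall, as Ftl1-ps1 with Ftl1, are left out. In each pair kept, the copy's rise was smaller than the fall of the gene it was set against. Whether the rise accounts for any of the fall was not tested.

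For several pairs the parent's own values were as follows. Rpl3 had 7104 and 8415 counts against 12314 and 11358, a log2 difference of -0.68 ± 0.09. Rps15a had 2347 and 2669 against 4179 and 3806, at -0.74 ± 0.09. Mrpl48 had 405 and 517 against 1042 and 945, at -1.18 ± 0.13. In these 3 genes both DBA/2J libraries lay below both C57BL/6J libraries, as in 31.2% of all tested genes. By contrast Ftl1 had 47861 and 56157 counts against 52306 and 46025, a log2 difference of 0.01 ± 0.12, with strains that overlap, while Ftl1-ps1 was called higher.

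**Figure D3:**
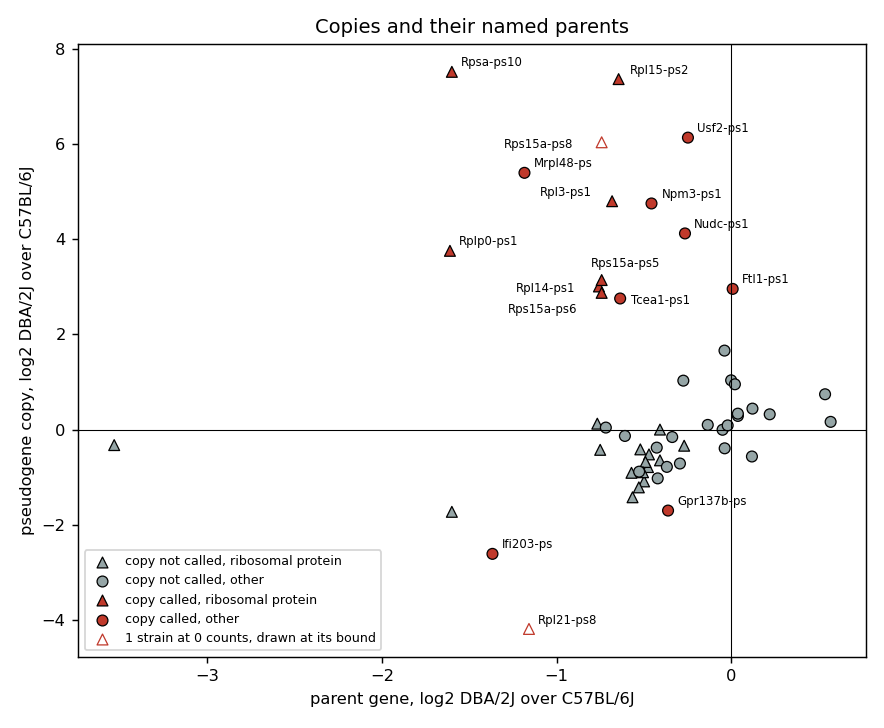
Log2 difference of each tested copy (vertical) against that of its named parent (horizontal), for the 56 copies with both tested; triangles are ribosomal protein genes, red symbols copies that were called, and open symbols copies at 0 in 1 strain, drawn at their bound. Of the called copies above 0, 13 of 14 lie left of 0 for the parent, and copies without a call lie between -2 and 2. Of all 75 tested parents, 66 lay below 0.

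Summing a parent with all rows named for it gives a level that does not depend on which of these rows a counted read was assigned to. Reads that were not counted and rows with other names lie outside this sum. In this sum 77 families were tested, 2 were called higher and 38 lower, against 9.22% and 8.86% of all rows so summed (18.1% in either direction). Of the 38 parents called lower, 37 were called lower as families too; the exception was Npm3 (edgeR adjusted p = 0.0762 for the family). The family of Gpr137b was called lower at -1.47 ± 0.31, where the parent alone stood at -0.36. The 2 families higher were Apc and the Nlrp5 family, whose counts came nearly all from Nlrp5-ps. Without either DBA/2J library 2 families were called lower and 0 higher.

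The sum moved the log2 difference by over 0.1 in 11 of 75 families with a tested parent, by at most 1.10. In the Rpsa family the 9 named copies held 28.4% and 28.5% of the summed counts in DBA/2J and 0.302% and 0.292% in C57BL/6J. The family differed by -1.12 ± 0.10 where Rpsa alone differed by -1.60. The Mrpl48 copy held 15.3% and 11.8% of its family in DBA/2J and 0.0960% and 0.211% in C57BL/6J, and the log2 difference went from -1.18 for the parent to -0.98. For Rpl15, with 5 named copies, it went from -0.64 to -0.53, and for Rps15a, with 8, from -0.74 to -0.64. In the Rplp0 family it stayed at -1.60 beside -1.61. Each of these families was still called lower.

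**Figure D4:**
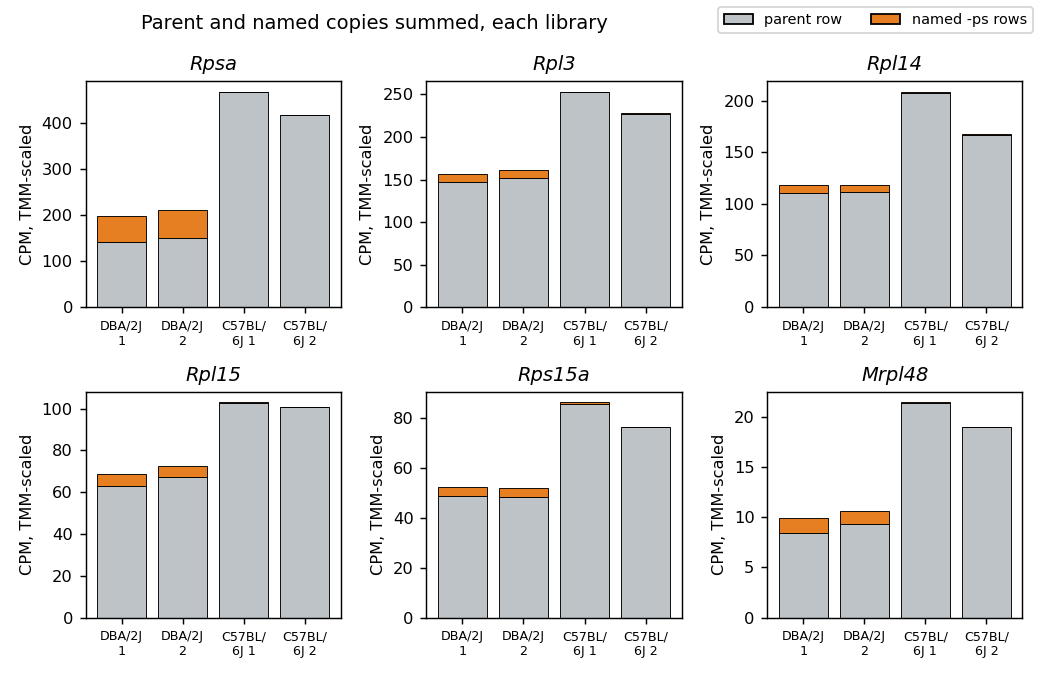
Summed level of 6 parents and all rows named for them, in each library, as TMM-scaled CPM on axes that start at 0; grey is the parent row and orange the named copies. The orange part is visible in the DBA/2J libraries of each family, up to 28.5% of the Rpsa sum, and the total stays lower in DBA/2J in all 6.

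Rows matched to a parent by sequence and not by name, most of them with predicted symbols starting with Gm, were added to the sums as a further alternative chosen after the data were seen. A row was added where its best coding match had at least 80% identity over at least 50% of its length. The counts of families called stayed at 2 higher and 38 lower. The log2 difference of the Rplp0 family, with 10 copies, went to -1.18, that of the Rpl29 family, with 89 copies, from -3.50 to -2.85, that of the Rpl15 family, with 26 copies, to -0.41, and that of the Rpsa family, with 25 copies, stood at -1.12. The predicted pseudogenes themselves were 8379 rows, of which 340 were tested, 104 were called higher and 11 lower (33.8% called), beside 31.2% of the tested named copies. That difference was not tested.

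At the minimum of 20 counts that chose the copies, 19 rows lay just inside, with 20 to 24 counts, and 15 just outside, with 16 to 19. Among those inside, Speer9-ps1 was called, and Serpina3l-ps had 12 and 8 DBA/2J counts against 1 and 0. Among those outside, Rpsa-ps11 had 0 and 0 against 6 and 10 and Nlrp1c-ps 0 and 1 against 15 and 3. Most rows on both sides had single-digit counts in each library, at which no difference short of presence against absence could be resolved. The 36 copies left untested by the filter are described by such counts alone.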

How the data were processed

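Liver poly(A) RNA was sequenced in 4 libraries, and the labels give 2 mice per strain. The deposited values are whole-number read counts per gene symbol, not normalised, made per the file headers with featureCounts 2.0.1 on Ensembl release 88 exons of GRCm38; STAR 2.4.0g1 and, at odds with the header, featureCounts 1.5.2 are listed in the submitters' processing notes. Headers carry the paired-end option although the labels state single-end reads, and no option for strand or for reads with several alignments, so copies overlapping a host gene or resembling a parent have uncertain counts.

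From the deposited counts, edgeR 4.0.16 (R 4.3.3) gave TMM scaling, filterByExpr (minimum count 10) and quasi-likelihood tests of strain over all genes, with Benjamini-Hochberg adjustment at 0.05; the script was tested on simulated data. Family sums were fitted the same way. Alternatives were DESeq2 1.42.0, other scalings, no filter, a replicate block and leaving out each library. Sequences came from GENCODE M21 and blastn 2.17.0 (word size 16). Intervals (95%, exact) and the floor of 3 counts cover counting error only. The members and lists were chosen with earlier results of these data known. Named are all called copies, the 10 highest per kb, rows at the count minimum and their parents; others were named after their values were seen, among them Rpsa-ps9, Rpl39-ps, Rps16-ps2, Rps13-ps2, Tpt1-ps3, Got2-ps1, Tmem181b-ps, Zfp-ps, Obox4-ps1 and Obox4-ps3.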

Additional observations from a re-analysis of the deposited data

How the results depend on the processing

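The 29 calls of copies were the same 29 under DESeq2 and under DESeq2's size factors in edgeR; library totals alone added Tmem181b-ps, the older form of edgeR lost Obox4-ps2, and no filter on low counts left 22, all among the 29. A minimum summed count of 10 gave 25 higher and 4 lower, and of 50 gave 21 and 4. Parents called higher numbered 2 under library totals alone, 2 under DESeq2 and 0 with no filter, where 25 parents were lower and, of all genes, 809 were higher and 707 lower. Over all genes 1454 were higher and 1388 lower as reported, and 1924 and 1024 under library totals alone. Leaving out 1 library gave 8 to 30 copies higher and 0 to 7 lower, 0 to 2 parents higher and 3 to 47 lower, 0 to 5 families higher and 2 to 46 lower, and 186 to 2450 genes higher and 106 to 2455 lower over all; the lone sample left in a strain is then assumed to vary like the other strain. With the replicate number as a block, 24 copies were higher and 5 lower (28 shared; Obox4-ps2 lost, Serpina4-ps1 gained). The numbers do not pair the samples: the correlation of the same-numbered deviations was -0.0640 over 15647 genes. None of the 29 called copies changed direction under any of these. Of the named copies without a call, Cyp2d37-ps (0.07 to -0.10), Vamp7-ps (0.14 to -0.09), Gstp-ps and Mpc1-ps turned without C57BL/6J replicate 1, the last 2 also without a DBA/2J library, and Gtpbp4-ps1, near 0 as reported, turned under 4 settings, library totals alone among them. With 2 animals a strain and single-digit counts in many copies, differences short of presence against absence were often not detectable at this depth.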
